A study of Arabidopsis thaliana with 5 samples.

Results

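The transcripts described here were lower after 60 min of low oxygen than in air and than at 30 or 240 min of low oxygen. At 30 min 51 of the 86 were within 0.3 (log2) of mean air and 18 were 0.7 or more above it, and at 240 min 14 were 0.7 or more above it and 5 as far below. These counts were made for members only, and the rule that chose them limits low values at both times. Nothing about members against other probe sets is read from them. They were taken from an array study of whole Arabidopsis thaliana seedlings by a rule on the values themselves. A probe set is a group of short probes that reports 1 transcript or several similar ones. To be a member, it had to average 6 or more in air. Its 60 min value had to lie at least 0.7 below both air arrays and below the 30 and 240 min hypoxic arrays. Its 30 min value had to be less than 0.3 below the lower air array. All values are on the log2 scale, on which a difference of 1 is a 2-fold difference. Of 8247 non-control probe sets, 2166 reached the level required in air and 88 met the rule. Leaving out class III peroxidases, beta-glucosidases and a few named genes removed 2 of them, so that 86 members remained. Of the 86, 11 list 1 gene each, 1 lists several genes and 74 are unnamed here, and genes that the rule leaves out could be recognised only among the named ones.

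The seedlings were of ecotype Col-0 with no transgene or mutation in the labels, 14 days old, and grown on upright agar plates at 22 °C with 16 h of light. Hypoxic seedlings stood in plastic bags flushed with 0.2% oxygen and 99.8% nitrogen for 30, 60 or 240 min, and air seedlings were taken at 0 and 240 min. Each treatment and time is 1 array, which gives 3 hypoxic and 2 air arrays in all. Nothing in the labels says how many seedlings went into an array. There is no air sample at 30 or 60 min.

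With 1 array for each treatment and time, no difference below carries a replicate error or a p-value. Because the rule reads the values of every array, the dip itself is a description and supports nothing. The closest measure of spread is the pair of air arrays, whose difference had an SD of 0.22 over all non-control probe sets and 0.28 over those at 6 or more in air. In whole seedlings, fewer cells of a type and less RNA per cell cannot be told apart. As a check of the tissue, 6 of 16 shoot markers were measured, and RCA, which encodes Rubisco activase, read 14.57 on the 60 min array, against 14.35 and 14.47 in air. The mean of the 6 markers was 9.45, 10.65 and 10.52 at 30, 60 and 240 min of hypoxia, against 10.67 and 10.75 in air at 0 and 240 min, and PSAN, a subunit of photosystem I, alone among them was lower than air by more than 1 at 60 min, at −1.46. None of the 12 root markers or the 7 seed and embryo markers was measured by a named probe set.

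When oxygen falls, plant cells lose most of their respiratory ATP and turn to sugar breakdown and fermentation. They also cut back processes that cost much energy, among them protein synthesis, protein export and growth, and many mRNAs of such processes leave the polysomes or become less abundant. Proteins bound for the cell wall, the vacuole and the plasma membrane enter the endoplasmic reticulum (ER) through a channel, receive N-linked sugars there and travel on in coated vesicles. Several of the named members belong to that route or encode secreted proteins, and they are described first.

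Over all 86 members, the difference of the 60 min value from the mean of the air arrays ran from −2.59 to −0.72, with a median of −1.03, which is 0.489 of the air level on the linear scale. The deepest member stood at 0.166 of its air level. Of the 86, 52 were at least 1 below mean air, 16 at least 1.5 below and 3 at least 2 below. The median value was 8.51, 6.93 and 8.41 at 30, 60 and 240 min of hypoxia, against 8.39 and 8.34 in air at 0 and 240 min. Against 0 min air alone, 54 members were lower at 60 min by 1 or more, and the share over all 2166 probe sets at 6 or more in air was 4.29%, and 0 were higher by as much, where it was 3.97%. Since membership was set by this difference, nothing is read from that contrast. At 60 min, 5.72% of the 2166 lay 0.7 or more below both air arrays. Of these 124 probe sets, 36 were left out because the 30 min value was already 0.3 or more below the lower air array. In 7 the 240 min value was at or below the 60 min one, and all of these were among the 36.

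**Figure D1:**
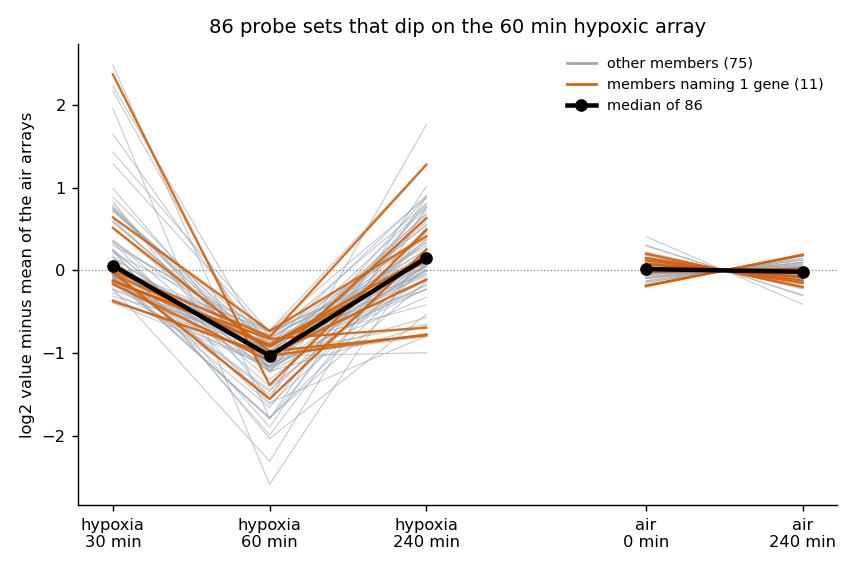
Values of the 86 members on the 5 arrays, each minus the mean of its air arrays (log2, vertical axis). Hypoxic arrays are on the left in order of time and air arrays on the right; grey lines are unnamed or multi-gene members, orange lines the 11 that name 1 gene, and the black line is the median, which is 0.06, −1.03 and 0.15 at 30, 60 and 240 min.

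AT2G21160 encodes the alpha subunit of the translocon-associated protein complex, which sits beside the ER channel, and it had the deepest dip among the named genes. It read 9.21, 7.68 and 9.48 at 30, 60 and 240 min of hypoxia, against 9.31 and 9.15 in air at 0 and 240 min. Only the 60 min array was away from the others, and its difference from mean air was −1.55. The gene is the only named member with a second probe set, which the rule did not select. That probe set read 9.40, 8.17 and 10.71 under hypoxia, against 9.78 and 9.78 in air. Its difference from mean air at 60 min was −1.61, and it missed the rule because its 30 min value was 0.38 below the lower air array. At 240 min they disagreed in size, with the selected one 0.25 and the second 0.93 above mean air. They report the same RNA on the same arrays and are not separate samples.

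AT4G24920 encodes a gamma subunit of SEC61, the channel through which new proteins enter the ER. It read 10.11, 8.73 and 9.88 at 30, 60 and 240 min of hypoxia, against 9.45 and 9.48 in air. The 60 min value was the lowest of the 5 and both other hypoxic values exceeded air, by 0.64 and 0.41 over mean air. Its difference at 60 min, −0.73, was the smallest among the named members.

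AT2G44660 encodes a glucosyltransferase of the ALG6 and ALG8 family, which adds glucose to the lipid-linked sugar chain that is later moved to proteins in the ER. It read 7.47, 6.70 and 7.77 under hypoxia, against 7.68 and 7.52 in air. The 60 min value stood apart from the other 4 and was 0.90 below mean air.

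Other genes of this route give the setting, from lists of locus codes written after the members had been seen. Of 15 genes of the ER channel and its partners, 5 were measured and 3 reached 6 in air. AT2G21160 and AT4G24920 are 2 of these 3, so that 1 was not chosen by the rule. This gene, AT2G34250, which encodes the alpha subunit of SEC61, read 8.42, 7.76 and 8.80 under hypoxia, against 8.35 and 8.23 in air. Its 60 min array was also the lowest of the 5, at −0.53 from mean air, a shallower minimum than in the 2 members. The order of the other arrays differed among the 3 genes. Of 17 genes for N-glycan synthesis and transfer, 3 reached that level, and without AT2G44660 the median difference at 60 min was 0.04. Of 24 ER folding genes, 1 did, the calnexin gene AT5G07340 at −0.44. Of 20 genes of the COPI and COPII vesicle coats, 4 did, with a median of −0.10 and 0 of them 0.7 below both air arrays. The median over all 2166 probe sets was −0.03.

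AT2G01600 encodes an adaptor of the ENTH and ANTH families, which bind clathrin at membranes that form vesicles. It read 8.36, 7.66 and 7.80 at 30, 60 and 240 min of hypoxia, against 8.61 and 8.37 in air. Both later hypoxic values were low, at −0.83 and −0.69 from mean air, so that this gene regained little by 240 min. The median of the other 4 adaptor genes at 6 or more in air was −0.04 at 60 min.

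Secreted proteins of several families are represented by 1 named gene each. AT5G46900, of the lipid transfer protein family, had the widest range over the 5 arrays among the named members. It read 9.78, 6.02 and 7.90 under hypoxia, against 7.23 and 7.59 in air. Its differences from mean air were 2.37 at 30 min and −1.39 at 60 min. Of 28 genes listed for this family, 6 reached 6 in air, with a median of −0.11 at 60 min without AT5G46900. Among them AT1G62510 went the other way, at 9.26, 11.58 and 9.96 under hypoxia, against 10.71 and 10.69 in air.

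AT2G05920 encodes a subtilase, a protease that most often acts in the cell wall. It read 8.74, 7.62 and 7.88 under hypoxia, against 8.81 and 8.50 in air. It was 1.03 below mean air at 60 min and still 0.77 below at 240 min. The only other subtilase gene at that level, AT5G67360, had another order and was lowest at 240 min, at 8.12, 8.14 and 6.76 under hypoxia, against 8.74 and 8.96 in air.

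AT4G11190 encodes a dirigent protein, of a family that guides the coupling of lignin-like phenols. It read 6.98, 6.09 and 7.13 under hypoxia, against 6.997 and 7.03 in air. The 4 arrays other than the 60 min one were nearly level. The difference of the 60 min value from mean air was −0.92, while the only other dirigent gene at 6 or more in air, AT2G39430, read 7.44 on that array, against 7.39 and 7.49 in air.

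AT2G01250 encodes a cytosolic ribosomal protein of the L7 family, part of the large subunit. It read 10.85, 9.92 and 11.65 at 30, 60 and 240 min of hypoxia, against 11.02 and 11.02 in air. The 60 min array was 1.09 below mean air and the 240 min array 0.63 above it. Of 73 cytosolic ribosomal protein genes listed, 37 reached 6 in air, and 27 of these were below mean air at 60 min, AT2G01250 included. The median without it was −0.14. Over all 2166 probe sets at 6 or more in air the median, −0.03, was below mean air too. The share of them below mean air was not counted, so nothing is read from 27 of 37. Only AT2G01250 among the 37 was 0.7 or more below both air arrays. The next lowest were AT2G25210 and AT4G15000, both at −0.54.

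AT2G20360 encodes a subunit of respiratory complex I, the NADH dehydrogenase of mitochondria. It read 6.83, 6.03 and 8.11 under hypoxia, against 6.84 and 6.83 in air. It matched air at 30 min, was 0.80 below at 60 min and 1.28 above at 240 min. Of the 14 complex I genes at 6 or more in air, 7 were below mean air at 60 min, AT2G20360 included. The share below mean air was not counted over all probe sets, so nothing is read from 7 of 14. AT2G20360 was the only one 0.7 below both air arrays, and the median without it was 0.01 at 60 min.

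AT4G24015 encodes a RING-type protein, of a class that often attaches ubiquitin to others. It read 6.89, 5.40 and 5.60 under hypoxia, against 6.19 and 6.57 in air. It stayed 0.78 below mean air at 240 min, the furthest of the named members. AT2G14910 read 6.42, 5.76 and 6.68, against 6.99 and 6.58 in air, and its 30 min value was also below both air arrays. At 60 min these genes were 0.98 and 1.02 below mean air.

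**Figure D2:**
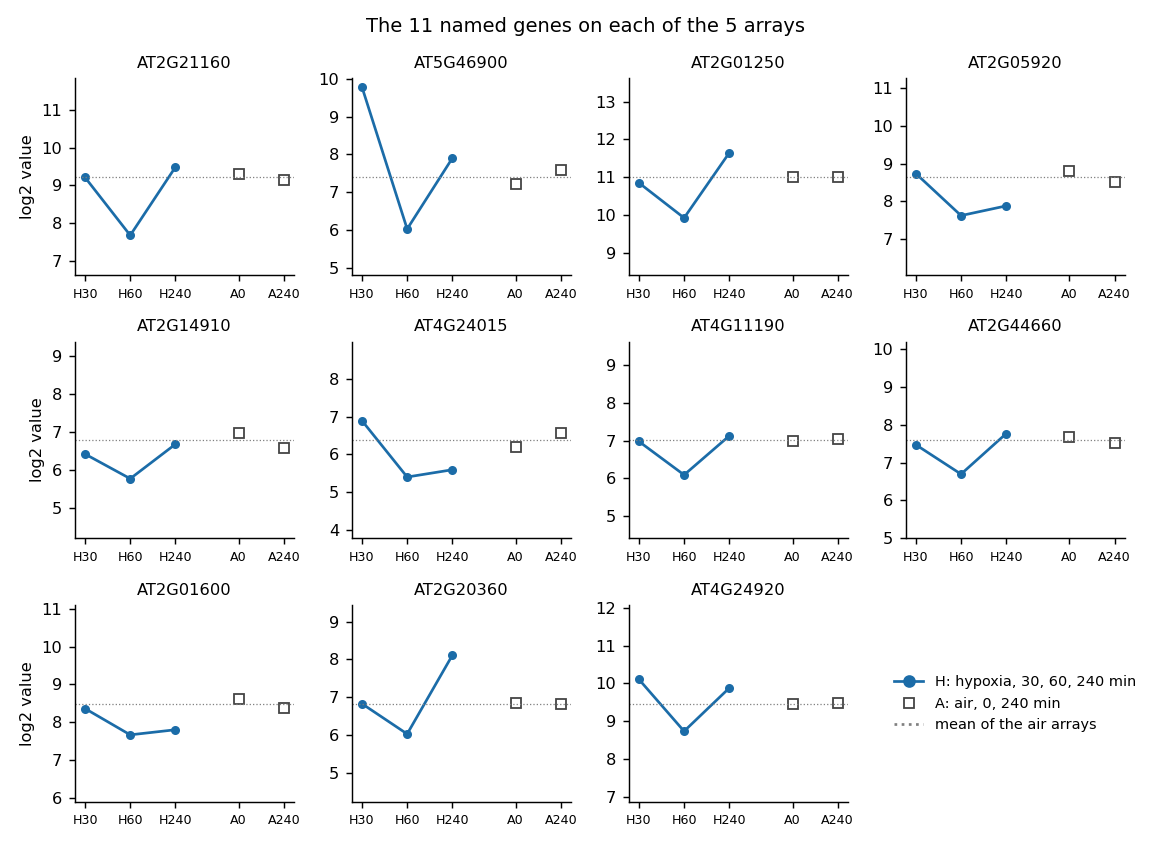
log2 values of the 11 named members on the 5 arrays, 1 panel per gene, ordered by depth; filled circles are hypoxia at 30, 60 and 240 min (H30, H60, H240), open squares air at 0 and 240 min (A0, A240), and the dotted line is the mean of the air arrays. Every panel spans the same range; AT5G46900 runs from 9.78 to 6.02, and AT2G01600, AT2G05920 and AT4G24015 stay low at 240 min.

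**Figure D3:**
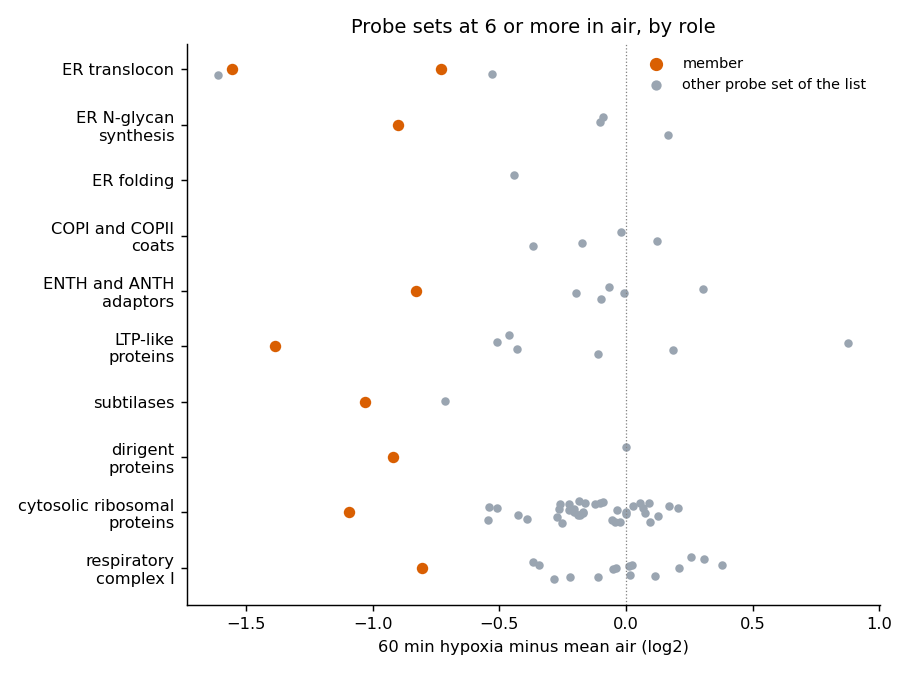
Difference of the 60 min hypoxic array from the mean of the air arrays (log2) for probe sets at 6 or more in air, by role, with members in orange and other probe sets of the same list in grey (vertical scatter within a row is only for display). The grey point at −1.61 in the top row is the second probe set of AT2G21160; ribosomal protein and complex I genes other than the members lie between −0.54 and 0.38.

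The 12 deepest members had a median difference of −1.79, and none of them names 1 gene. The deepest, probe set 18983_s_at, lists several genes and so names none. It read 11.62, 7.08 and 9.94 under hypoxia, against 9.62 and 9.71 in air. Its 30 min value was the highest of the 5, and its 60 min value was 4.55 below it. The deepest unnamed members were 18696_s_at and 20547_at. The first read 7.47, 5.38 and 8.46, against 7.73 and 7.65 in air, and its 240 min value was above both air arrays. The second read 9.20, 6.91 and 8.41, against 8.996 and 8.89, and its 240 min value was below both.

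Members differed among themselves about as much at 30 min as at 240 min, and the rule bounded both times only from below. At 30 min, 40 of 86 were above both air arrays, 29 below both and 17 between or level, counted for members only. The median difference from mean air was 0.06 and the range −0.39 to 2.48, and 51 members were within 0.3 of mean air. Against 0 min air, 9 members (10.5%) were higher by 1 or more, where the share over all 2166 probe sets was 6.51%. Against mean air 8 members were, with a median of 2.07 at 30 min, −1.11 at 60 min and 0.38 at 240 min. The 8 include 12777_i_at and 12778_r_at, which are numbered in a row and may report the same gene. AT5G46900 is the named gene among those 8. The 51 members near air at 30 min had a median of −1.07 at 60 min.

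At 240 min the rule asked only that the value exceed the 60 min one. Of 86, 78 were closer to mean air than to their 60 min value, and 8 had regained less than 50% of the distance. The difference from mean air ran from −0.995 to 1.76 with a median of 0.15, against −0.08 over the other 2080 probe sets at 6 or more in air. In all 52 members were above both air arrays, 23 below both and 11 between or level. These counts were made for members only, so nothing about the members against other probe sets is read from them. Against 240 min air, 5 members (5.81%) were higher by 1 or more, where the share over the 2166 was 3.88%, and 0 were lower by as much, where it was 7.11%. Selection for a value above the 60 min one limits the second count. The median difference of members from 240 min air was 0.22.

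**Figure D4:**
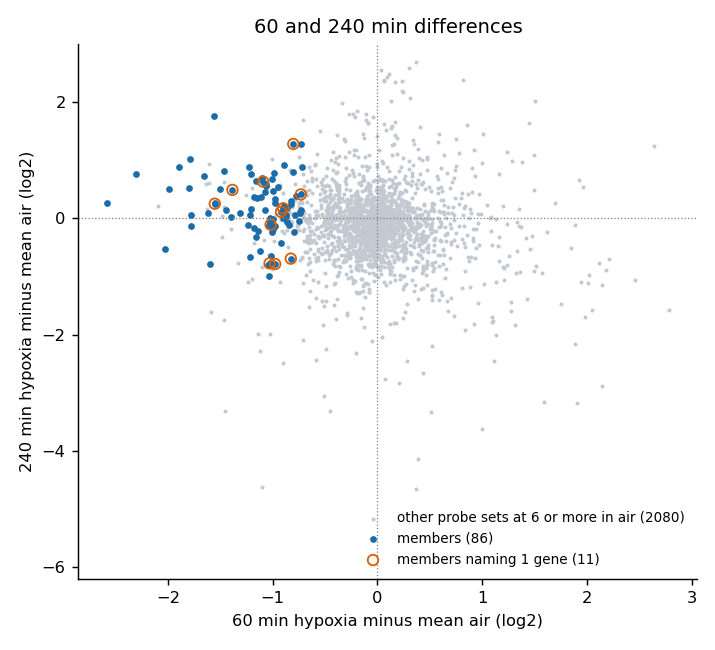
Difference from mean air at 60 min (horizontal) and at 240 min (vertical) of hypoxia, log2, for members in blue, the 11 named ones circled in orange, and the other 2080 probe sets at 6 or more in air in grey. Members lie left of −0.7 by the rule. Of them, 14 lie 0.7 or more above 0 on the vertical axis and 5 lie 0.7 or more below it. These were counted for members only, and the rule limits low values at 240 min.

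The difference of 240 from 0 min air had a median of −0.03 over the members and ran from −0.82 to 0.38. Its quartiles were −0.19 and 0.04, against −0.15 and 0.10 over the 2166 probe sets, so the spread was similar. By asking for a distance from both air arrays, the rule favours members whose air arrays agree. In either direction 0 members differed by 1 or more, where the shares over the 2166 probe sets were 0.693% higher and 0.185% lower. With shares that small, nothing is read from the 0.

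The rule's edges show how members pass into their neighbours. Closest inside the depth limit were unnamed 15658_at and AT2G01600, both 0.70 below the lower air array, and closest outside among named genes were AT4G39220, of the RER1 family that returns ER proteins from the Golgi, at −0.70, and AT5G22880, the histone H2B gene HTB2, at −0.68. At the level limit, an unnamed member averaged 6.03 in air, and AT1G24100, a gene of glucosinolate synthesis, averaged 5.58 and was left out. At the 30 min limit the last unnamed member inside was 0.30 below the lower air array and the first named one outside was the second probe set of AT2G21160. An unnamed member just passed the 240 min limit with a 60 min value 0.04 lower.

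Some properties of the probe sets, which the rule did not use, differed between members and the other probe sets at 6 or more in air. Probe sets whose suffix s_at marks probes shared by several transcripts made up 34 of 86 members (39.5%) and 524 of 2080 others (25.2%). A single gene was listed for 11 of 86 members (12.8%) and for 814 of 2080 others (39.1%). Among probe sets with the plain suffix at, the shares were 9 of 39 (23.1%) and 637 of 1366 (46.6%). For transcripts of gene families, such values can therefore hold the sum of several genes. Of the 11 named genes, 7 lie on chromosome 2, 3 on chromosome 4 and 1 on chromosome 5. Of all 3592 genes named on the array, 1331 lie on chromosome 2 and 1145 on chromosome 4.

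Some control values of the 60 min array were low like the members, and others were not. All 9 bacterial and Cre hybridisation controls, which are added to the sample and not made by the plant, read below mean air on that array, by 0.05 to 0.52 with a median of −0.29. The GAPDH control toward the 3′ end was at −0.79 from mean air and the one toward the 5′ end was level with it, so that the 3′ minus 5′ difference was 0.69, −0.23 and 1.97 at 30, 60 and 240 min of hypoxia, against 0.57 and 0.55 in air. It was thus below air at 60 min and above air at 240 min, and further from air at 240 min. For ubiquitin the 3′ minus 5′ difference was 2.15, 1.67 and 2.39 under hypoxia, against 1.96 and 1.89 in air. Both controls were lowest at 60 min and highest at 240 min in this difference. The actin control was at −0.48 from mean air at 60 min, and the 3′, middle and 5′ ubiquitin controls were at −0.27, 0.08 and −0.01. When every column was shifted to level the hybridisation controls, which was tried only once the values were known, the 60 min differences of all probe sets from mean air had a median of 0.28 and 22 members met the rule, AT2G21160 and AT5G46900 among them and the other 9 named genes not. The shift was −0.34, 0.27 and 0.07 for hypoxia at 30, 60 and 240 min, and 0.09 and −0.10 for air at 0 and 240 min. It was thus largest on the 30 min array, and members could fail the 30 min limit as well as the 60 min limit. The change of the 60 min array against air is less than the 0.7 the rule asks for. All 86 members therefore had to stay below both air arrays at 60 min. Nothing is read from this, and their median was −0.75. The 60 min difference then shrank by more than 1.5 times for AT4G24920, to −0.45, for AT2G20360, to −0.52, and for AT2G01600, to −0.55. Of other probe sets at 6 or more in air, the 161 numbered 32 to 34 from a member had a median of −0.16 at 60 min and 14 of them (8.7%) were 0.7 below both air arrays. The 80 numbered next to a member had a median of −0.12, with 5 (6.25%) that low. The 5 include the second probe set of AT2G21160, and other neighbours may also report the gene of a member. Over all 2080 other probe sets the median was −0.02 and 38 (1.83%) were that low. Probe sets that read under 5.5 on the 4 arrays other than 240 min hypoxia, and whose numbers lie 1, 2 or 31 to 35 from a member, had a median difference of −0.02 over the 69 members with at least 3 of them. The part of these in the dips was not tested. On the 240 min hypoxic array a patch of raised dim neighbours, defined from the same neighbours, held 6 members, AT2G01600 among them, and 17 members had too few dim neighbours to be judged. Without the 6, the median difference at 240 min was also 0.15.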

How the data were processed

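RNA of whole seedlings was hybridised to 5 Affymetrix arrays, 1 for each treatment and time. The authors deposited log2 values. The submitters' processing notes name RMA, a background correction with quantile normalisation and probe summary that pulls array-wide differences together; its version was not stated. The column medians, 5.12 to 5.14, were nearly equal. Gene names came from the platform annotation, which gives 3794 of 8247 non-control probe sets 1 gene, 70 several and 4383 none; 3784 were matched to TAIR10.1. Members, lists and thresholds were chosen with earlier results of these data known, and the role lists were written after the members had been seen. Named genes are all members that list 1 gene, with the other probe sets of those genes. The 17 lists matched by symbol and description found 206 genes and 0 members, since the tables hold no descriptions. No test was possible, and counts use a difference of 1. Promoter sequences were not used here. The number of arrays limits the precision. Alternatives were another dip, air level, baseline, scaling and fold, a renewed quantile normalisation, 1 probe set per gene, and, added after seeing the data, a shift by hybridisation controls. The rule was tested on simulated data. Python 3.11.15, pandas 2.3.3, numpy 2.4.6 and matplotlib 3.10.9 were used.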

Additional observations from a re-analysis of the deposited data

Results flagged for a closer look

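At 240 min, 8 of the 11 named genes read higher in hypoxia than in air and 3 lower, while all lay below air at 60 min by the rule. For 6 of the 8 the difference exceeded 0.22, the SD of the air pair's difference over all probe sets. The difference of 240 min hypoxia from 240 min air was 1.28 for AT2G20360, a complex I subunit, and 0.63 for AT2G01250, a ribosomal protein. For genes of the ER route it was 0.39 for AT4G24920, 0.33 for AT2G21160 and 0.25 for AT2G44660. For AT5G46900, of the lipid transfer protein family, it was 0.31. For AT4G11190 and AT2G14910 it was 0.10 and 0.09, and for AT2G01600, AT2G05920 and AT4G24015 it was −0.57, −0.62 and −0.98. Whether the 60 and 240 min differences differ was not tested, since each time is 1 array. Over probe sets at 6 or more in air that SD was 0.28, and the 0.25 of AT2G44660 does not exceed it. Over all 2166 such probe sets the median difference of 240 min hypoxia from 240 min air was −0.04. The share of them that read higher was not counted, so nothing is read from 8 of 11.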

How the results depend on the processing

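Of 115 alternative values, 95 moved by less than the SD of the air pair's difference (counts by less than 1.5 times) and 20 by more. The sign changed in 2, both of the median at 30 min, which was 0.06 and became −0.02 with 1 probe set for each named gene and −0.03 with the shift by hybridisation controls. The 60 min differences of the named genes moved by less than that SD in 44 of 55, and the 11 others were all under that shift, where each stayed negative. The shift moves every gene by the same amount, so these 11 moved together. Members lie at least 0.7 below air, so each had to stay negative. Centring columns also moves all genes alike, and the deposited values were already quantile-normalised. Nothing is therefore read from 44 of 55 or from 95 of 115. The rule found 38 members with a dip of 1, of which 3 were named genes and whose median at 60 min was −1.39, and 148 with a dip of 0.5. It found 11 with 1 probe set for each named gene. With columns shifted by the hybridisation controls, chosen after seeing the data, 22 probe sets met it, with a median of 0.40 at 240 min, and the 12 deepest of the 86 had a median of −1.51 at 60 min; 53 of the 86 members then failed the 60 min limit and 25 the 30 min limit. A renewed quantile normalisation gave 83, of which 76 were shared. Of the 11 named genes, 9 met the rule under that normalisation, 10 with columns centred on their medians and 2 under the shift. With a difference of 1.5 instead of 1, probe sets past it numbered 64 instead of 179 for 60 min hypoxia against 0 min air and 97 instead of 238 for 240 min hypoxia against 240 min air. No paired analysis was possible because each group has 1 array. Values near the level of 5.5 are close to the dim end of the array, and 10 members read under it at 60 min. With no air array at 30 or 60 min and no replicates, time in the bag, array and hypoxia cannot be told apart for those times.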

Other observations

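In a list of histone, chromatin and cell cycle genes, 5 reached 6 in air, and for 3 of them the 60 min value differed from the lower air array by −0.68 to −0.60, short of the limit of 0.7. AT5G22880, the histone H2B gene HTB2, read 9.03, 8.48 and 9.13 at 30, 60 and 240 min of hypoxia, against 9.34 and 9.16 in air. The histone H3 gene AT1G09200 read 9.86, 9.18 and 10.25, against 9.84 and 9.87 in air, and AT5G65360, also an H3 gene, read 9.49, 8.90 and 10.05, against 9.66 and 9.50. At 240 min HTB2 was below both air arrays and the H3 genes were above both. The differences from mean air at 60 min were −0.77, −0.67 and −0.68 for these genes, −0.05 for HIS4, a histone H4 gene, and −0.18 for 3xHMG-box2. These genes were singled out after their values were seen. Probes can be shared among near-identical histone genes.

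In a list of cell wall genes, 6 reached 6 in air, and they went different ways at 60 min. COB, which encodes COBRA, a protein needed for oriented cellulose deposition, read 8.43, 7.60 and 8.39 under hypoxia, against 8.40 and 8.20 in air. EXPA15, an expansin, which loosens cell walls, read 6.28, 5.63 and 7.18, against 6.40 and 6.18, and EXPA4 read 8.75, 7.80 and 8.51, against 8.34 and 8.34. Their differences from mean air at 60 min were −0.70, −0.66 and −0.53. The difference was −0.34 for TBL45, −0.05 for EXPA8, which was lowest at 30 min, and 0.22 for EXGT-A3, which was above both air arrays.

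The air arrays held exactly the same value for 11 of 86 members (12.8%) and for 112 of the other 2080 probe sets at 6 or more in air (5.38%). Within 0.05, the shares were 28 (32.6%) and 546 (26.2%).

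With the 60 min limit turned round, so that 60 min lay above both air arrays and above the other hypoxic arrays, 75 probe sets qualified. Their medians were −0.63, 1.16 and −0.40 from mean air at 30, 60 and 240 min.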
